A study of Mus musculus with 2 samples.

Results

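Choroid plexus cells were 53 of the 5109 cells kept in the library of N-PRα-KO mice, or 1.04% (95% exact binomial interval 0.778 to 1.35%), in a single-cell RNA-seq study of cerebral cortex. They were chosen on the measured values themselves. A kept cell had at least 300 genes detected and at most 50% of its UMIs (unique molecular identifiers, each standing for 1 captured RNA molecule) from mitochondrially encoded genes. A member also had 3 or more UMIs, and 0.05% or more of its UMIs, from Folr1, Kcne2, Clic6, Kl and Otx2 together, and 1% or more from Ttr. Its UMIs from the ependymal genes Ccdc153 and Tmem212 were under 0.1% and those from the collagen genes Col1a1, Col1a2 and Col3a1 under 0.4%. The same rule found 25 of 10805 kept cells (0.231%, interval 0.150 to 0.341%) in the wild-type library, and the kept cells of the whole series numbered 15914.

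The study asked how activated fibroblasts vary in a cortex that lacks much of its myelin. It held 1 library per genotype. The N-PRα-KO library came from mice labelled Nestin-Cre;Pdgfraflox/flox, in which Cre under the Nestin promoter acts in the neural lineage and removes the floxed gene of the PDGF receptor alpha, and the WT library came from C57BL/6J mice with no stated Cre or floxed allele. In both groups the cortex was dissociated together with its meninges and passed through magnetic sorting for CD140a, the protein made from Pdgfra, so neither library is an unselected sample of the tissue. Age, sex and the number of animals behind each library are not in the labels used here, and the strain background of the floxed mice is not given. The file headers name a later release of the BD Rhapsody pipeline for WT than for N-PRα-KO, run on another date. Reads of sex-linked genes (Xist and Y-linked genes) also differed between the libraries. In N-PRα-KO, 358 of 699 microglia had Xist alone and 165 had Y-linked genes alone. In WT, 523 of 605 microglia had Xist alone and 6 had Y-linked genes alone. Genotype, sex, library preparation, sequencing and pipeline version therefore cannot be told apart, and no difference between the libraries has a replicate check. Intervals below are 95% intervals for counting error only.

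The choroid plexus is a folded sheet of epithelium over a vascular core that hangs in each brain ventricle. Its epithelial cells secrete cerebrospinal fluid by moving ions and water from blood to ventricle, and they hold a barrier through tight junctions between neighbouring cells. They also export proteins into the fluid, among them transthyretin, the carrier of thyroxine that Ttr encodes. They develop from the neuroepithelium of the dorsal midline, next to the ciliated ependymal cells that line the rest of the ventricle.

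The 53 members held 699925 UMIs, 540951 of them from genes outside the mitochondrial genome. A member had between 1600 and 62284 UMIs (median 9598) and between 642 and 8343 genes (median 3155). The 25 WT cells had medians of 6258 UMIs and 2022 genes, and 158315 UMIs outside the mitochondrial genome in all. Comparison classes were cut from the same kept cells by marker sums: 519 ependymal, 528 endothelial, 1103 astrocyte, 699 microglial and 1079 fibroblast cells in N-PRα-KO. Each needed 3 or more UMIs and a set share of UMIs from its markers. These were Ccdc153 and Tmem212 (0.1%) for ependymal and Cldn5, Flt1, Pecam1 and Ly6c1 (0.3%) for endothelial cells. Aqp4, Slc1a2, Slc1a3 and Aldoc (0.5%) served for astrocytes, and C1qa, C1qb, Csf1r and Cx3cr1 (0.5%) for microglia. The collagen genes of the rule (0.4%) served for fibroblasts. Gaps in these genes were fixed in part by the choice of classes. Levels are CPM, counts per 1000000 UMIs outside the mitochondrial genome, summed over the cells of a class. Of the members, 0 were called doublets by Scrublet, which called 35 of the 5109 N-PRα-KO cells and 197 of the 10805 WT cells. No cell index of a member was used by the other library.

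The label held up against markers that the rule did not use, although those genes move with the rule's genes and so are a description. All 15 listed further choroid plexus markers had UMIs, and their summed level was 26102 CPM against 812 in ependymal, 382 in endothelial, 194 in astrocyte, 157 in microglial and 883 in fibroblast cells. Enpp2 alone was 18425 of the 26102 CPM. The other 14 summed to 7677 CPM in the members against 614, 155, 83.2, 84.7 and 286 in the same order of classes. They made 25.9 of 10000 UMIs outside the mitochondrial genome in the lowest member, 79.2 in the median and 123.5 in the highest. Ttr took 18.1% of the members' UMIs outside the mitochondrial genome, 9.80 times the share of the next gene, Enpp2. In the selection itself, Ttr made 5.98% of all UMIs in the lowest member, 14.6% in the median and 23.4% in the highest. The 4 cells that failed on Ttr alone reached at most 0.197%, so no cell that met the other criteria lay near the limit of 1%.

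The other limits of the rule had few cells beside them. The panel of Folr1, Kcne2, Clic6, Kl and Otx2 gave between 3 and 76 UMIs a member (median 23), and 28 members had UMIs of all 5 genes, 16 of 4, 8 of 3 and 1 of 2. The 1 cell that failed on the panel's share alone had 0.0243% against 0.0898% in the lowest member. On the ependymal pair alone 2 cells failed, at 0.106% and 0.140%, against at most 0.0751% in a member, and on collagens alone 1 cell failed at 0.891% against at most 0.227%. On mitochondrial UMIs alone 1 cell failed, at 77.3%, while the highest members stood at 49.98% and 47.7%.

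The genes furthest above the pooled cells of the other 5 classes were taken as the 15 highest ratios among genes at 50 CPM or more outside the rule. Atp2b3, a calcium pump of the plasma membrane, stood at 277 CPM (interval 235 to 325) against 1.08 CPM in the other classes. Defb11 and Defb9, which encode defensin-family peptides, stood at 845 and 104 CPM against 3.36 and 0.493. Htr2c, the serotonin 2C receptor, stood at 797 CPM against 4.75, the inward-rectifier potassium channel gene Kcnj13 at 481 against 3.10, and the carbonic anhydrase gene Car12 at 499 against 3.68. The bicarbonate transporter Slc4a5 (385 CPM against 2.92), the tight-junction gene Cldn2 (580 against 4.44), Vat1l (638 against 4.89), Tmem72 (336 against 1.35), Prr32 (630 against 2.96) and 2900040C04Rik (725 against 7.27) followed. Oca2, Frmpd1os and Otx2os1, a transcript named for its place beside Otx2, were at 51.8, 68.4 and 57.3 CPM. The genes lowest against the pooled classes were in part microglial, among them Siglech (11.1 CPM against 280) and Sall1 at a log2 ratio of -3.90.

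**Figure D1:**
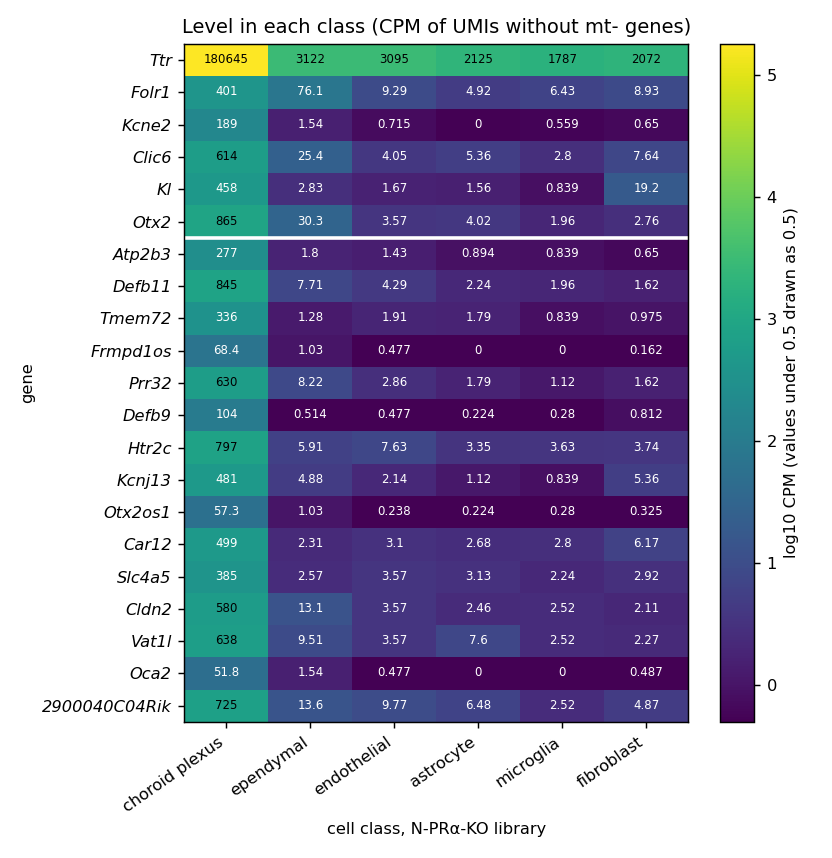
Heat map of the level of the 6 genes of the membership rule and the 15 leading genes (rows) in 6 cell classes of the N-PRα-KO library (columns), in CPM, with colour on a log scale. Every row is brightest (highest) in the choroid plexus column, which is how the genes were chosen, and Ttr is the gene with a high level in all other columns too (1787 to 3122 CPM).

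The letters TAATCC were looked for in promoters because the members express Otx2, whose product OTX2 is a homeodomain factor of a family known for them. Otx2, a gene of the rule, and Vat1l, a leading gene, are shown because their windows held these letters on either strand. Kcne2, a channel subunit of the rule, is shown as a window without them. RefSeq promoter windows, from 250 bases before to 50 after a start site on GRCm38.p6, were found for 16 of the 20 panel and leading genes, in 20 windows. TAATCC, or GGATTA where it lies on the other strand, is in capitals, and it was in 2 of these 20 windows against 2320 of all 32851 windows (7.06%). Counted from the start site, the first of the capitals is at -211 in Otx2 and at -79 in Vat1l, and the Kcne2 window holds neither form. A match is letters only, and a window with none says nothing about OTX2.
Otx2 promoter, chr14:48665060-48665359, minus strand: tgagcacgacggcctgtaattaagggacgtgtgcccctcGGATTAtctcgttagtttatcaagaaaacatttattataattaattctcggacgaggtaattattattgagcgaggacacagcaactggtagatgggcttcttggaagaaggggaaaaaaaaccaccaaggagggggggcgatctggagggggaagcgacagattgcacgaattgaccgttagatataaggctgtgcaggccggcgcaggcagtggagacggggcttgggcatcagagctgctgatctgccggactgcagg
Vat1l promoter, chr8:114205390-114205689, plus strand: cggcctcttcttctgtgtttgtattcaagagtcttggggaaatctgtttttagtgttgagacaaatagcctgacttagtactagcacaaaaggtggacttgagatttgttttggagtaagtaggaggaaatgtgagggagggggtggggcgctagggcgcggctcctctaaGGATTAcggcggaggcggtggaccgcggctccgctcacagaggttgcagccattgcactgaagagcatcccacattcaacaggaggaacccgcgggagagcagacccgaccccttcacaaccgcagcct
Kcne2 promoter, chr16:92292139-92292438, plus strand: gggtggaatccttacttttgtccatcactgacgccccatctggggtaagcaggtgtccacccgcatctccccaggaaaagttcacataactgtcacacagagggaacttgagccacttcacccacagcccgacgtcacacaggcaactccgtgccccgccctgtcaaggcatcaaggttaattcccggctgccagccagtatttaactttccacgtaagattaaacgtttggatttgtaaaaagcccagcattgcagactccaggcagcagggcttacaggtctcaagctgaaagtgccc

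Against ependymal cells, their neighbours on the ventricle wall, 4.04% of 8660 genes were 4-fold or more higher in the members and 11.6% were 4-fold or more lower, with every gene at 20 CPM or more in 1 of the classes compared. The median log2 ratio of all these genes was -0.25. Leaving Ttr out of the total moved that median to 0.10, and the counts from 350 higher and 1006 lower to 463 and 738. Against endothelial cells, the other barrier cells of the brain, 6.96% of 8353 genes were higher and 8.42% lower, or 804 and 516 genes without Ttr in the total in place of 581 and 703. Against astrocytes the shares were 6.18% and 9.19% of 8279 genes, or 693 and 590 genes in place of 512 and 761. The gene lists below are read against these shares, and no list was tested.

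Many genes for secreted proteins were higher than in ependymal cells. Of 23 compared genes of the list, 11 were 4-fold or more higher and 0 lower, with a median log2 ratio of 1.5, and without Ttr, which the rule used, 10 of 22 were higher (median 1.46). Enpp2, the secreted enzyme autotaxin that makes lysophosphatidic acid, stood at 18425 CPM (interval 18065 to 18790) against 198, a log2 ratio of 6.54 (6.43 to 6.64). Sostdc1, a secreted antagonist of BMP and Wnt signals, stood at 1172 CPM against 76.1 in ependymal and 5.0 in endothelial cells. Igfbp2, which binds insulin-like growth factors, was also at 1172 CPM, against 166 in ependymal and 1189 in fibroblast cells. A2m, a protease inhibitor, and Bmp4 had log2 ratios of 4.79 and 3.82 over ependymal cells. Not all secreted proteins separated the classes. Clu, a chaperone of extracellular fluid, was at 3272 CPM against 3135, a log2 ratio of 0.06 (-0.01 to 0.13), and Cst3, the protease inhibitor cystatin C, at 3242 against 2033, with 16378 CPM in astrocytes. Igf2 had 12 UMIs in the members, 22.2 CPM against 67.4 in fibroblasts.

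Ion, water and pH transport was the list with the highest median. Of 24 genes, 15 were 4-fold or more higher than in ependymal cells and 1 lower (median log2 ratio 4.28), and against endothelial cells 16 of 26 were higher and 2 lower (median 2.92). Without Kcne2 and Clic6 of the rule, 13 of 22 were higher than in ependymal cells and 1 lower (median 3.48). Slc12a2, the sodium, potassium and chloride cotransporter NKCC1, was at 993 CPM against 53.5, a log2 ratio of 4.21 (3.98 to 4.45). The water channel gene Aqp1 stood at 645 CPM against 8.74, the bicarbonate transporter Slc4a10 at 543 against 19.5, and carbonic anhydrase 2 (Car2) at 937 against 44.7. Car12, whose enzyme faces the outside of the cell, had the highest log2 ratio of the list at 7.75 (6.81 to 8.90). The other water channel showed the reverse order, with Aqp4 at 55.5 CPM in the members, 600 in ependymal cells and 1842 in astrocytes. Astrocytes were cut in part on Aqp4. Atp1b1, the beta subunit of the sodium pump, was within 2-fold of ependymal cells at 993 CPM against 624, and Fxyd1, a regulator of the pump, was higher at 1113 against 211. Kcnq1, the potassium channel that pairs with the product of Kcne2, had 0 UMIs in the members, which allows up to 5.55 CPM at 3 counts.

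Carriers for solutes divided the members from the endothelial barrier. Of 33 genes, 13 were 4-fold or more higher than in ependymal cells and 2 lower (median log2 ratio 1.65), while against endothelial cells 13 of 32 were higher and 9 lower (median 0.96). Folr1 of the rule is 1 of the higher genes in both counts. Slco1c1, a thyroxine carrier, stood at 446 CPM against 119 in ependymal but 1719 in endothelial cells, and the organic anion carrier Slc22a8 at 392 against 72.5 and 960. Slc22a17, a receptor for lipocalin, was at 1736 CPM against 208, a log2 ratio of 3.06 (2.92 to 3.20). Genes known for the blood-brain barrier were lower than in endothelial cells, with the glucose carrier Slc2a1 at 272 CPM against 2031 and the drug efflux pump Abcb1a at 31.4 against 808. Abca4 and Slc29a4, a carrier that takes up monoamines, were at 111 and 107 CPM with log2 ratios of 5.58 and 5.12 over ependymal cells. Lrp2, a large endocytic receptor known from the plexus, had 2 UMIs.

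Junction genes separated the classes by member, not as a list. Of 17 genes, 4 were 4-fold or more higher than in ependymal cells and 1 lower, and the list's median was 0.17. Cldn1 stood at 379 CPM against 1.80 in ependymal and 2.62 in endothelial cells, and Cldn2, whose claudin forms a pore for cations and water, at 580 against 13.1 and 3.57. Cldn9 and the cadherin Cdh3 had log2 ratios of 4.43 and 5.31 over ependymal cells. Cldn5, the claudin of the endothelial barrier, stood at 139 CPM against 3550 in endothelial cells, and the scaffold gene Tjp1 at 49.9 against 382. Cldn5 was among the genes that cut the endothelial class. Among 7 keratin and structural genes, 1 was 4-fold or more higher than in ependymal cells and 3 were lower (median log2 ratio -1.98). The 1 higher gene was Krt18 (181 CPM against 22.1), while Krt8 stood at 66.5 against 22.1 and Vim was lower at 446 against 2546.

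Motile-cilium genes set the members apart from ependymal cells in the other direction. Of 28 genes, 2 were 4-fold or more higher and 18 lower, with a median log2 ratio of -2.50. Part of that gap was fixed in advance, since Ccdc153 and Tmem212 are on the list. The rule required little of them in the members, and the ependymal class was cut by 0.1% or more of them. No value without this pair was computed. Foxj1, the regulator of motile cilia, stood at 118 CPM against 756, and Fam183b, a cilium protein gene, at 18.5 against 630. The 2 genes above were 2900040C04Rik and Gmnc, a factor for multiciliated cells, at 46.2 CPM against 10.3, and Calml4 differed less at 353 against 254. Mcidas and Ccno, which act early in making many cilia, had 0 UMIs. Against endothelial cells, which lack motile cilia, 11 of the 28 genes were 4-fold or more higher and 0 lower (median 1.40). Foxj1 was then at 118 against 42.9 CPM.

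Transcription factors of the dorsal midline were present. Otx2 gave 468 UMIs in 50 of 53 members, 865 CPM (interval 788.5 to 947) against 30.3 in ependymal and 3.57 in endothelial cells. Msx1, a homeobox gene of the dorsal midline, stood at 604 CPM against 88.9, and Lmx1a, a roof-plate regulator, had 26 UMIs (48.1 CPM) in 16 members against 8 UMIs in all other kept cells. Sox2 (102 CPM against 642) and Meis2 (12.9 against 321) were lower than in ependymal cells. In all, 6 of 17 genes of the list were 4-fold or more higher, Otx2 of the rule among them, and 6 lower. Emx2, a gene of the dorsal forebrain, was sparse at 20 UMIs (37.0 CPM), and genes of the hindbrain gave no reading. Hoxb2, Hoxb3, Hoxa3, Hoxd3, En2, Gbx2 and Meis1 all had 0 UMIs in the members, but all of these except Meis1 had no more than 6 UMIs in the other kept cells as well. So the ventricle of origin could not be read from these genes at this depth.

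Receptors and hormone genes were a mixed group. Of 17 receptor genes, 5 were 4-fold or more higher than in ependymal cells and 0 lower (median log2 ratio 0.25). They were Kl, the FGF23 co-receptor klotho and itself a gene of the rule (458 CPM against 2.83), Htr2c with a log2 ratio of 7.07 (6.47 to 7.75), the leptin receptor Lepr (118 CPM against 2.06), the prolactin receptor Prlr (168 against 4.37) and Npr1, a receptor for natriuretic peptides (90.6 against 10.02). The endothelin receptor Ednrb was at 370 CPM against 361 in ependymal and 1782 in astrocytes. Ins2, an insulin gene, gave 14 UMIs in 9 members, 25.9 CPM, while all other kept cells of the library gave 15. In WT it gave 4 UMIs in 4 choroid plexus cells and 3 in all others. Of 13 insulin and IGF signalling genes, 4 were 4-fold or more higher and 0 lower, and among 13 thyroid hormone and retinoid genes the counts were also 4 and 0, or 3 and 0 of 12 without Ttr (median 0.55 in place of 1.03). Shh and the retinol carrier Rbp4 had 0 UMIs.

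**Figure D2:**
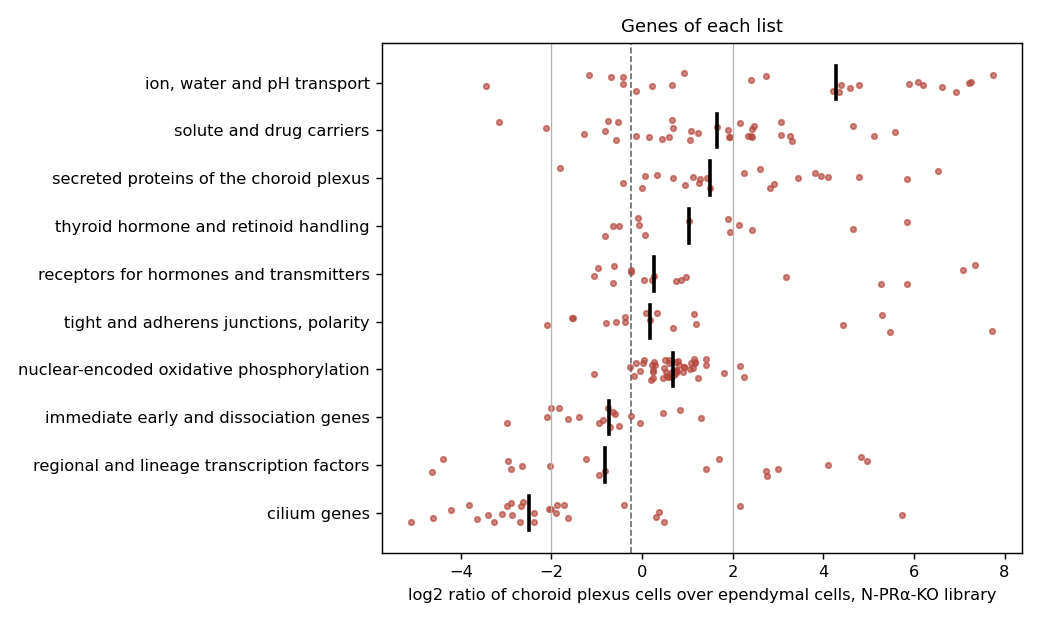
Log2 ratio of choroid plexus over ependymal cells of the N-PRα-KO library (horizontal axis) for each gene (points) of 10 gene lists (rows), with black bars at the list medians, a dashed line at the median of all 8660 genes (-0.25) and grey lines at 4-fold. The ion transport list has its median at 4.28 with genes on both sides of the dashed line, the cilium list has its median at -2.50, and oxidative phosphorylation genes lie close together around 0.68.

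Genes for oxidative phosphorylation encoded in the nucleus were higher as a group by a small step. Of 48 genes, 43 had a log2 ratio above 0 over ependymal cells, where 40.3% of all genes did, but 2 passed 4-fold and 0 were that much lower. Their median was 0.68 over ependymal, 0.66 over endothelial cells and 0.58 over astrocytes, against all-gene medians of -0.25, -0.18 and -0.05. With Ttr out of the total the medians were 0.96, 0.95 and 0.86, where all genes stood at 0.10, 0.16 and 0.29. Atp5g1, a subunit of the ATP synthase ring, stood at 995 CPM against 209, and Ndufa1, a complex I subunit, at 863 against 194. Cox8a, a cytochrome oxidase subunit, stood at 1538 against 688 and cytochrome c (Cycs) at 140 against 40.3. Ppargc1a, a coactivator of mitochondrial genes, was lower than in ependymal cells at 72.1 CPM against 150 but 7.15 in endothelial cells. All 13 mitochondrially encoded protein genes were above ependymal cells too, by a median of 0.60, none by 4-fold. All 13 were also above endothelial cells (median 0.61), but over astrocytes 9 of 13 were (median 0.16).

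The metal handling, stress and immune lists gave unlike counts, where 4.04% of all genes were 4-fold or more higher and 11.6% lower. Of 16 iron and copper genes, 5 were 4-fold or more higher than in ependymal cells and 0 lower: the metalloreductases Steap1 (375 CPM against 32.1) and Steap2 (298 against 20.6), the copper transporters Atp7a (61.0 against 2.57) and Slc31a1 (532 against 99.2), and transferrin (Trf, 181 against 38.0). Of 18 immediate early and dissociation-related genes, 0 were higher and 3 lower, namely Klf4 (48.1 CPM against 380), Fos (153 against 662) and Dusp1 (129 against 522), and Hspa1b was at 360 against 146. Of 19 antioxidant and detoxifying genes, 0 were higher and 3 lower. Among those lower were Gstm1 (312 CPM against 1866) and Txn1 (364 against 1481), while the peroxiredoxin Prdx5 was at 701 against 242. Of 15 genes for folding in the endoplasmic reticulum, 0 passed 4-fold in either direction (median 0.36), and likewise 0 of 6 cell-division genes (median -1.11). Complement, MHC class I and interferon genes had 2 of 10 higher, lipid carriers 2 of 11 lower, and Notch and BMP genes 4 of 16 higher and 3 lower.

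Pdgfra, the gene deleted in the neural lineage and the target of the sort, was low in the members. It gave 35 UMIs in 18 of 53 members (34.0%), 64.7 CPM (interval 45.1 to 90.0), with 0 to 8 UMIs a cell. The level was 30.3 CPM in ependymal, 55.8 in endothelial, 29.4 in microglial and 772 in fibroblast cells of the same library. Microglia, which should lack the gene, had a UMI in 11.02% of cells at a median of 5706 UMIs a cell against 9598 in the members. Thinned to 1000 UMIs a cell, 3 of 53 members (5.66%) and 16 of 695 microglia (2.30%) had one. In WT the 25 choroid plexus cells gave 46 UMIs in 17 cells (68%), 291 CPM (213 to 388), while WT microglia stood at 168 CPM with a UMI in 26.4% of cells. After thinning, 4 of 24 WT choroid plexus cells (16.7%) and 69 of 588 WT microglia (11.7%) had one. Reads of Pdgfra in a class that should lack it were thus also more frequent in the WT library, and the part of free RNA in the gap between the choroid plexus classes was not tested. Of the PDGF ligand genes, Pdgfa stood at 185 CPM against 123 in ependymal and 54.6 in endothelial cells, Pdgfc at 27.7, Pdgfd at 33.3 and Pdgfb at 29.6, and the receptor gene Pdgfrb at 38.8. Of the 6 genes of the family, 2 (Pdgfc and Pdgfd) were 4-fold or more above ependymal cells.

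Values in single members are given as a description, since the rule used most of these genes and the range of a sparse gene is set largely by counting. Per 10000 UMIs outside the mitochondrial genome, Ttr ranged from 912 through a median of 1869 to 3197, and Enpp2 from 73.7 through 204 to 341, with UMIs in all 53 members. Cab39l, a listed choroid plexus marker, was also found in all 53, at 2.07 to 25.6. Otx2 ranged from 0 to 19.03 with a median of 8.44, Clic6, a chloride channel family gene, from 0 to 20.4 with a median of 6.4, and Folr1, a folate receptor, from 0 to 25.6 with a median of 3.47. Kcne2 had UMIs in 33 of 53 members. At 1000 UMIs a cell, Folr1 was seen in 20 of 53 (37.7%), Otx2 in 34 (64.2%) and Enpp2 in all 53, where at full depth the shares were 90.6% for Folr1 and 94.3% for Otx2.

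RNA of other cell types was present at low levels in most members and high in 1. Summed markers of ependymal cells were at 837 CPM in the members against 9989 in ependymal cells themselves, astrocyte markers at 1301 against 36746, fibroblast markers at 1248 against 22055, endothelial markers at 507 against 10015, and microglial and macrophage markers at 680 against 16047. Each of these sums includes the genes that cut its class. Astrocyte markers were at 999 CPM in microglia of the same library, which also should lack them. Mural markers were at 1479 CPM in the members against 649 in microglia, and 322 of the 800 mural UMIs came from 1 member with 208 UMIs of Rgs5, 99 of Acta2 and 15 of Vtn. That member had 333 mural UMIs per 10000 where the next had 20.6, and it was not called a doublet. Similarly 20 of 31 Plvap UMIs, a gene of fenestrated capillaries, came from 1 other member. Neuronal markers were at 64.7 CPM. Of 5 erythroid markers 4 had UMIs, together 146 CPM against 88.9 in ependymal and 932 in endothelial cells, and Alas2 was at 0. Both Xist and a Y-linked gene were read in 13 of the 53 members, Xist alone in 33, Y-linked genes alone in 4 and neither in 3. Both were also read in 74 of the 699 microglia. In WT the numbers were 22 with Xist alone, 0 with a Y-linked gene and 3 with neither. The part of this other RNA in any result was not tested, except that the results were recomputed without the mural-rich member.

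The mitochondrial limit decided how many choroid plexus cells each library held. At 25% the N-PRα-KO library gave 39 of 4196 cells (0.929%, interval 0.662 to 1.27%) and WT gave 0 of 10069, for which 3 counts would be 0.0298%. At 50% the numbers were 53 and 25. Between 25 and 50%, 14 of 913 N-PRα-KO cells (1.53%, 0.841 to 2.56%) and 25 of 736 WT cells (3.40%, 2.21 to 4.97%) were choroid plexus cells. Above 50%, 1 of 1746 and 5 of 115 cells met the other criteria (0.0573% and 4.35%). With no limit there were 54 and 30. The WT cells that met the other criteria therefore all lay above 25%, and those of N-PRα-KO mostly below.

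The share of mitochondrial UMIs in single cells showed the same gap between libraries. The lowest N-PRα-KO member was at 3.23%, the median at 21.6% and the highest at 49.98%, with quartiles at 18.3 and 25.3%. In WT the values were 25.06%, 32.6% and 49.8%, with quartiles at 29.6 and 36.1%. The distributions overlapped, but the lower quartile of WT was above the upper quartile of N-PRα-KO. Without any limit the medians were 21.9 and 33.5%. No other class had a WT median that much higher: medians in N-PRα-KO and WT were 15.8 and 17.1% for ependymal, 15.5 and 14.9% for endothelial, 21.01 and 15.2% for astrocyte, 12.1 and 12.7% for microglial and 14.0 and 18.4% for fibroblast cells. At the 50% limit the choroid plexus class had the highest median of the 6 classes in both libraries, in N-PRα-KO by 21.6 to 21.01% over astrocytes. With no limit the N-PRα-KO astrocytes had a median of 27.4%, above the 21.9% of choroid plexus cells. All 13 mitochondrially encoded genes were lower in N-PRα-KO than in WT choroid plexus cells, with a median log2 ratio of -0.72, where the median over the other classes was 0.12. WT cells were also shallower, with a median of 6258 UMIs against 9598, and the part of depth in this gap was not tested.

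**Figure D3:**
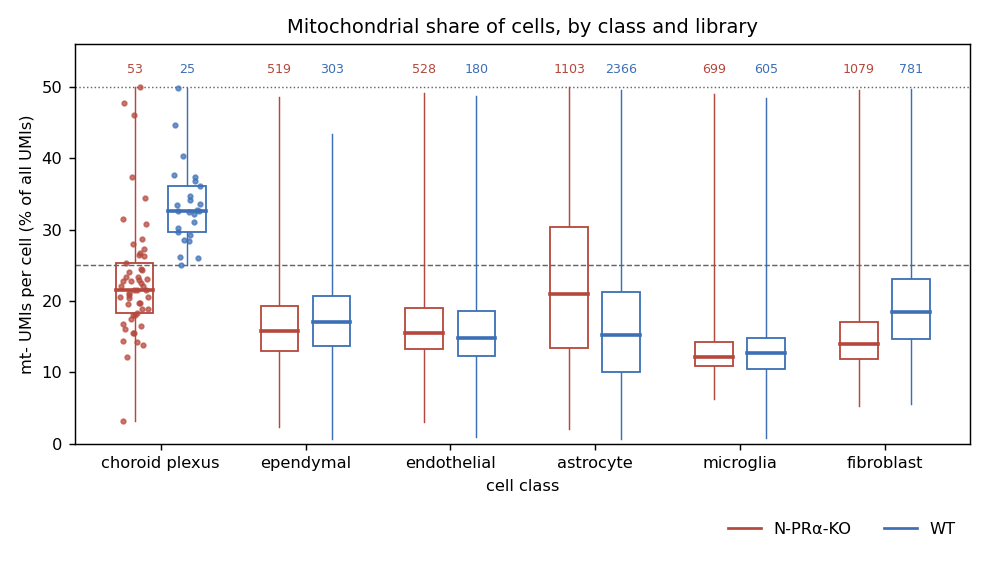
Percent of UMIs from mitochondrially encoded genes per cell (vertical axis) by class and library, as boxes of the quartiles with points for choroid plexus cells, with lines at 25% (dashed) and 50% (dotted) and the number of cells above each. All 25 WT choroid plexus cells lie above the dashed line, while 39 of 53 N-PRα-KO choroid plexus cells lie on or below it.

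Within N-PRα-KO, few genes separated members above and below 25%. The 39 members at or below 25% had medians of 10251 UMIs and 3326 genes, and the 14 above had 7388.5 UMIs and 2278.5 genes. Of 1941 genes at 100 CPM or more, 105 differed by 2-fold or more and 5 by 4-fold or more. Plvap was at 205.8 CPM above the limit and 14.3 below, through the 1 member described. Pcmtd1, Mylk, Serpinb1b and Rest were at least 4-fold lower above the limit, Mylk and Serpinb1b with 2 UMIs there. Malat1, a nuclear RNA, was higher above the limit at 2667 CPM against 1082 (log2 ratio 1.30), and Clic6 lower at 412 against 672. Ttr, Otx2, Folr1 and Kcne2 had log2 ratios of 0.19, 0.22, 0.16 and 0.01.

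Between the libraries, 4.4% of 2251 genes at 100 CPM or more were 4-fold or more higher in N-PRα-KO choroid plexus cells and 1.42% were 4-fold or more lower, 99 and 32 genes, with a median log2 ratio of -0.21. This comparison was added after the data were seen. Most of the higher genes were higher in other classes as well: 92 of the 99 had a median log2 ratio of at least 1 over the other classes. So did 12 of the 32 lower genes in the other direction. The share of all 2251 genes with such a median was not computed, so these counts cannot be set against a shift of the whole library. Between the ratio in choroid plexus cells and the median over the other classes, Spearman's rho across genes was 0.74. Apod, a lipocalin, had a log2 ratio of 5.09 in choroid plexus cells and a median of 4.90 in the others, Cox4i1 3.78 and 3.36, and Cst3 2.54 and 3.46. The ratios followed the GC content of the last 500 bases of the transcript, and so did each gene's median ratio over the other classes. The other classes were not taken singly. In 5 equal groups of genes from low to high GC, the median log2 ratio in choroid plexus cells was -0.60, -0.47, -0.39, 0.08 and 0.86. For the median over the other classes it was -0.56, -0.36, -0.20, 0.18 and 0.95. Across genes, which share libraries and are not independent, Spearman's rho with GC was 0.56 in choroid plexus cells and 0.64 for the median over the others. The group with the highest GC held 64 of the genes 4-fold higher and the group with the lowest held 1. The part of this GC relation in any single gene's ratio was not tested.

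The genes that mark the class in both libraries were then set side by side. They were the 75 at least 8-fold above the pooled other classes in each library and at 100 CPM or more in either, so a gene that marked the class in 1 library alone was left out by this choice. Set against WT, their median log2 ratio was -0.31, and 25 of 75 (33.3%) were above 0, against -0.21 and 40.3% over all genes. Of the 75, 4 were 2-fold or more higher and 15 lower, where 14.7% of all 2251 genes were higher and 13.7% lower by as much, and 1 passed 4-fold in each direction. The CPM minimum, which also applied to all 2251 genes, let a gene enter through 1 library alone. Among the lower genes Gmnc, Plvap, Strip2, Slc24a5 and Dsp reached 100 CPM in WT only, and among the higher genes Prlr did in N-PRα-KO only. These counts are thus set in part by the minimum. The split depended on the scale: over all UMIs, mitochondrial ones included, the counts were 9 and 10 and the class median -0.12. Outside the rule 69 genes were left, with 4 higher and 14 lower and a median of -0.35. The rule's own genes chose the cells in both libraries, and their levels are given as a description. Ttr stood at 180645 CPM against 194612 (log2 ratio -0.11), Otx2 at 865 against 891 (-0.04), and Clic6 at 614 against 670 (-0.13). Enpp2, outside the rule, stood at 18425 against 13852 (0.41).

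Wfikkn2, which encodes a secreted protein that binds growth factors of the TGF-beta family, was the class gene furthest above WT. Per 10000 UMIs it ranged from 0 through a median of 7.998 to 22.5 in N-PRα-KO, with UMIs in 51 of 53 cells, and from 0 through 0 to 13.8 in WT, in 11 of 25. It stood at 771 against 152 CPM, a log2 ratio of 2.35 (1.75 to 3.005). The cells overlapped, with WT cells in the low range. The coagulation factor gene F5 (653 CPM from 353 UMIs against 183 from 29), Ppp1r1b (614 against 183) and Prlr (168 against 50.5) followed at 1.83, 1.74 and 1.74, the last with 8 WT UMIs and an interval of 0.70 to 2.99.

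Slc6a15, a carrier of neutral amino acids, was the class gene furthest below WT. Per 10000 UMIs it ranged from 0 through 0 to 9.25 in N-PRα-KO, with UMIs in 26 of 53 cells, and from 0 through 10.2 to 23.7 in WT, in 23 of 25. It stood at 144 against 1017 CPM, a log2 ratio of -2.82 (-3.23 to -2.42). Defb11 had a median of 5.98 per 10000 in N-PRα-KO and 28.3 in WT, with every WT cell at 11.6 or more, and a log2 ratio of -1.93 (-2.12 to -1.75). The adhesion gene Cntn1 stood at 458 against 1497 CPM (-1.71), Slc4a10 at 543 against 1276 (-1.23), Kcne2 at 189 against 417 (-1.14) and Kcnj13 at 481 against 929 (-0.95). Folr1 was on the other side at 401 against 221 (0.86). Kcne2 and Folr1 are genes of the rule that chose the cells in both libraries, so their ratios are a description only. GC content also differed among the class genes named. It was 50.6% for Wfikkn2, 56.2% for Folr1 of the rule, 34.6% for Slc6a15 and 32.0% for Cntn1, but 34.6% for F5. Over the 75 genes rho with GC was 0.49. With only the 14 N-PRα-KO members above 25% set against the 25 WT cells, 64 of 75 class genes kept the sign of their ratio. The class median was then -0.58, and that of all genes -0.26. The 14 are among the 53 members and the WT cells are the same, so kept signs are partly built in and are no independent check.

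**Figure D4:**
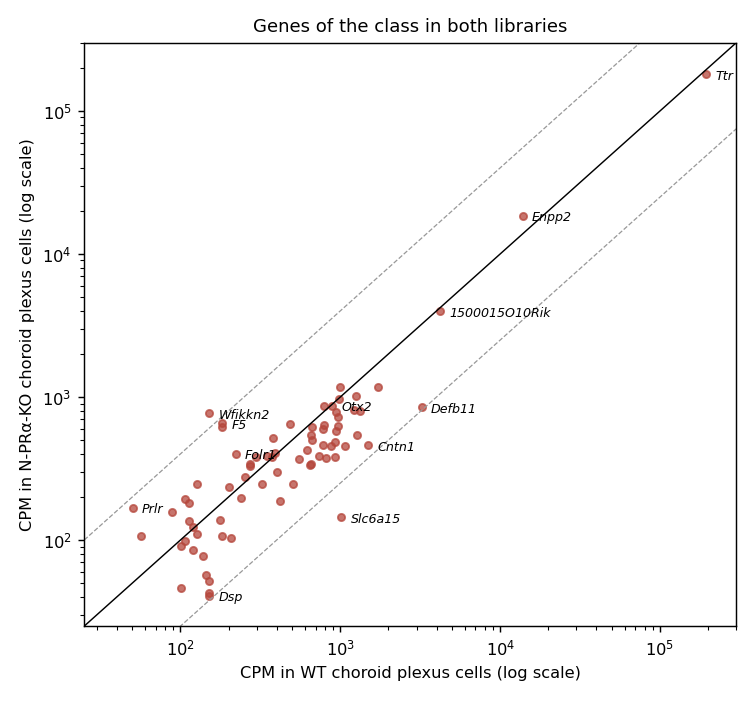
Level of the 75 class genes in choroid plexus cells of N-PRα-KO (vertical) against WT (horizontal), each in CPM on log axes, with a solid line of equal level and dashed lines at 4-fold. Most genes lie between the dashed lines, with Wfikkn2 above (771 against 152) and Slc6a15 below (144 against 1017).

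Ttr was found in nearly every cell of the N-PRα-KO library. It had UMIs in 4978 of the 5056 kept cells outside the class (98.5%) and in 3413 of 10780 (31.7%) in WT. Its level in N-PRα-KO was 3122 CPM in ependymal, 3095 in endothelial, 2125 in astrocyte, 1787 in microglial and 2072 in fibroblast cells, and in WT 152, 147, 165, 121 and 148. The members held 59.1% of the kept cells' Ttr UMIs in N-PRα-KO (97720 of 165365) and 81.7% in WT (30810 of 37693). The part of free RNA in these levels was not tested. Among ependymal cells 2 had 1% or more Ttr, and without them the level in that class was 2222 CPM. The members' own lowest share, 5.98% of all UMIs, compares with a median of 0.163% in the other kept cells of N-PRα-KO.

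Other genes of the rule were higher in ependymal cells than in microglia of the same library. Folr1 was at 76.1 CPM in ependymal cells with a UMI in 33.3% of them, against 6.43 CPM and 3.15% in microglia, at median depths of 7117 and 5706 UMIs. Otx2 was at 30.3 against 1.96 CPM and Clic6 at 25.4 against 2.80. Without the 2 ependymal cells at 1% or more Ttr, Folr1 was at 73.6 CPM, Otx2 at 28.2 and Clic6 at 24.1 in that class. Kcne2 rested on 6 UMIs in 2 ependymal cells (1.54 CPM, 0.559 in microglia) and Kl on 11 UMIs (2.83 CPM, 0.839 in microglia). The part of free RNA in these levels was not tested either.

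**Figure D5:**
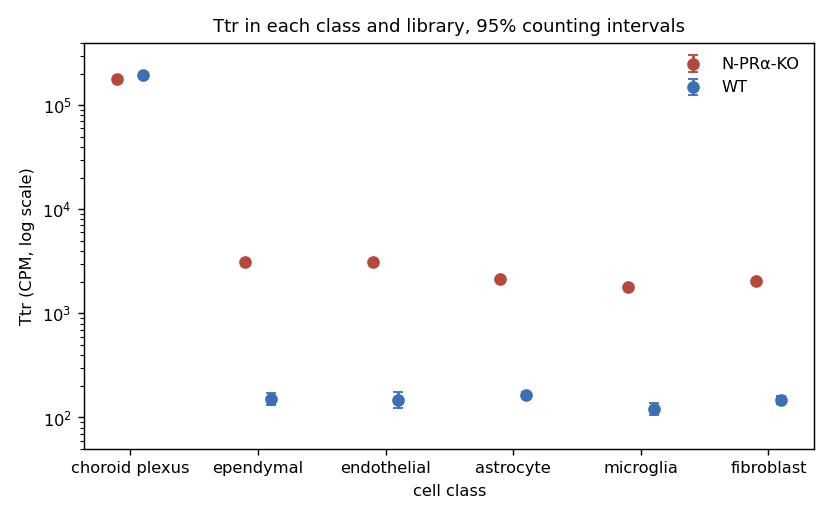
Ttr level in CPM (log axis) by cell class in the N-PRα-KO and WT libraries, with bars for counting intervals. Choroid plexus cells stand at 180645 and 194612 CPM, and the other classes at 1787 to 3122 CPM in N-PRα-KO and 121 to 165 CPM in WT.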

How the data were processed

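The authors captured cells on the BD Rhapsody system and, per the file headers, processed the reads with its whole-transcriptome pipeline (release 1.10.1 for WT, an earlier release for N-PRα-KO) on GRCm38 with GENCODE M19; the submitters' processing notes name GRCm38 and mm10. The deposited values are counts: error-corrected molecules (UMIs) per gene and cell, per the file headers, 1 table per library, with 8336 and 11438 barcodes. Kept cells had 300 or more genes and no more than 50% mitochondrial UMIs. Class counts were summed and expressed as CPM without mt- genes. Since each group is 1 library, no test was made: intervals are exact Poisson, exact Clopper-Pearson or exact conditional intervals at 95% and cover counting error only, and counts under 3 were set to 3 in ratios. Genes at 20 CPM or more in either class were compared, and a gene counts as higher or lower from 4-fold. Shares of cells were also thinned to 1000 UMIs a cell. Doublets were scored with Scrublet in scanpy 1.11.5. Python 3.11.15, numpy 2.4.6, scipy 1.17.1, pandas 2.3.3 and matplotlib 3.10.9 were used.

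The members and the 21 gene lists were chosen with earlier results of these data known. Genes named are those of the membership rule, the 15 highest and 10 lowest ratios over the other classes, the 25 highest levels, and of each list the 6 highest levels, the 3 highest and 3 lowest ratios and members at 0, plus Pdgfra and the 12 largest ratios between members under and over 25% mitochondrial UMIs. The comparison of N-PRα-KO with WT members, with its 75 class genes and its GC content (GENCODE M21 transcripts), and the values without the mural-rich member or without the genes of the rule were chosen after the data were seen. GC content was available for 2247 of 2251 genes. Overlapping and antisense genes could share reads, since no source used here says whether counting used strand. Some genes of the lists are not reported here.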

Additional observations from a re-analysis of the deposited data

How the results depend on the processing

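Alternatives were a 25% or no mitochondrial limit, 500 genes, 10 panel UMIs, removal of Scrublet calls, other totals for CPM, means over cells, a 100 CPM minimum and thinning. Of the results that answer a comparison, 287 values stayed close, 23 moved and 5 changed sign. The 500-gene limit and the removal of Scrublet calls left the same 53 N-PRα-KO members, so values of the members alone could not move there. Close was a wide label for counts: 350 higher and 1006 lower genes becoming 463 and 738 fell within it. At a 25% limit WT held 0 members. Over all UMIs the keratin median became -0.98 and Ttr in microglia 1539 CPM. Without mt- genes and Ttr in the total, the medians over ependymal cells became -0.11 for transcription factors, 0.96 for oxidative phosphorylation and 0.040 for antioxidant genes (from -0.24). As means over cells they became 2.16 for secreted proteins, 3.51 for ion transport, -0.078 for junctions (from 0.17) and -0.24 for metal handling (from 0.14). With genes at 100 CPM or more, fewer genes were compared, and 133 were higher and 445 lower than in ependymal cells, 181 and 330 than in endothelial cells, and 182 and 374 than in astrocytes. The medians then became 2.42 for secreted proteins, 2.43 for carriers, -0.38 for junctions, 1.70 for transcription factors (from -0.83) and 1.91 for thyroid and retinoid genes. Without the genes of the membership rule, tried after the data were seen, the medians became 3.48 for ion transport and 0.55 for thyroid and retinoid genes. Thinned, shares of members with a UMI became 5.66% for Pdgfra, 37.7% for Folr1 and 64.2% for Otx2. The cause of these shifts was not tested beyond the fewer genes and UMIs in each. Between the libraries, genes 4-fold lower numbered 89 with members over 25% only and 12 over all UMIs (32 otherwise), and Plvap became 0.50 in place of -1.34 with members over 25% only. Values without the mural-rich member were also computed (100 higher and 34 lower between the libraries). No paired analysis was possible because each group is 1 library and no result comes from a test. The depth limits sparse genes: 3 counts are 5.55 CPM in the members.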
